A study of Oryza sativa with 72 samples.

Results

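The 200 rows described here are rows of a rice leaf transcript count table that stood higher at drought day 9 than at every other stage in irrigated control plants. They were chosen by measured values in the control libraries alone, from the 55986 rows of the table. A row was eligible with a mean of at least 5 CPM in a control group, where CPM is the count scaled to a common library total, which 15123 rows reached. For each leaf, the mean log2(CPM + 1) of the day 9 controls was set against the highest control mean of the 5 other stages. The difference had to reach 1 on the log2 scale, a doubling, in both leaves. This held for 252 rows, 1.67% of those eligible, and the 200 with the highest smaller-leaf value were kept, leaving out 52. The working description of these rows as high in day 9 controls alone goes against the data, because most of them were raised in drought-treated leaves at the same stage, 139 of them by at least a doubling in both leaves.

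All plants were the rice cultivar IR64, an indica variety, grown singly in pots of an automatic irrigation system (iPOT) with 14 h of light and 10 h of dark a day. Drought-treated plants were raised above their water supply 14 days after sowing, which drained the pots, for a severe drought of 9 days, and were then watered again for 6 days. Control plants stayed irrigated throughout. Both the latest fully expanded leaf and the one before it, the second latest leaf, were harvested at drought days 0, 6 and 9 and after 2 h, 3 days and 6 days of rehydration, with 3 libraries in each of the 24 groups and 72 in all. Whether the replicates came from separate plants is not stated in the labels; a p-value here measures library-to-library spread, which may be technical.

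A leaf's transcript levels vary with the plant's age, with the hour of the day through the circadian clock and light, and with water supply. A control plant of the same age is what allows a difference in water supply to be read apart from the plant's age. The labels give no harvest hour, extraction batch or sequencing run, so the day 9 stage cannot be told apart from anything else its libraries shared. The 2 h stage came at the start of rehydration, after the 9 days of drought, so its plants were close in age to those of day 9. Why these stages differ was not tested. The table lists its rows without gene identifiers. A row is therefore named here by its place in the table, and no gene name, function or sequence is given for it.

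Usable libraries held 6370914 to 24192248 counts, with a median of 13764577. The second replicate of the treated latest leaf at day 9 held 1755 counts, with a count in 29 of the 200 rows, and was left out, so that group has 2 libraries. A count of 3 in a usable library corresponds to 0.124 to 0.471 CPM, and such a floor covers counting error only. Scaled by library total, the median of the eligible rows fell by 0.31 (latest leaf) and 0.18 (second latest leaf) from day 6 to day 9 in controls, and by 0.18 and 0.22 in treated leaves. With TMM scaling, edgeR's trimmed mean normalisation, these shifts were 0.01 to 0.02, and the edgeR values below use that scaling.

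The 200 rows together took a share of the counts at day 9 that was several times their share at any other stage, in irrigated and in droughted leaves. In the 6 day 9 control libraries they held 4.33% to 6.36% of all counts, against 0.726% to 2.06% in the 30 control libraries of other stages. The control values chose the rows and are given as a description. In the 5 usable day 9 treated libraries, which had no part in the choice, the share was 4.16% to 6.42%, against 0.879% to 2.47% in the other 30 treated libraries. No day 9 library of either treatment overlapped any library of another stage. By group, the treated share at day 9 was 5.46% ± 1.36 (SD, n = 2) in the latest leaf and 5.03% ± 0.890 (SD, n = 3) in the second latest leaf. At 2 h of rehydration the treated share was 1.42% ± 0.191 (SD, n = 3) and 1.21% ± 0.231 (SD, n = 3), close to the 1.20% of both leaves at day 6.

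**Figure D1:**
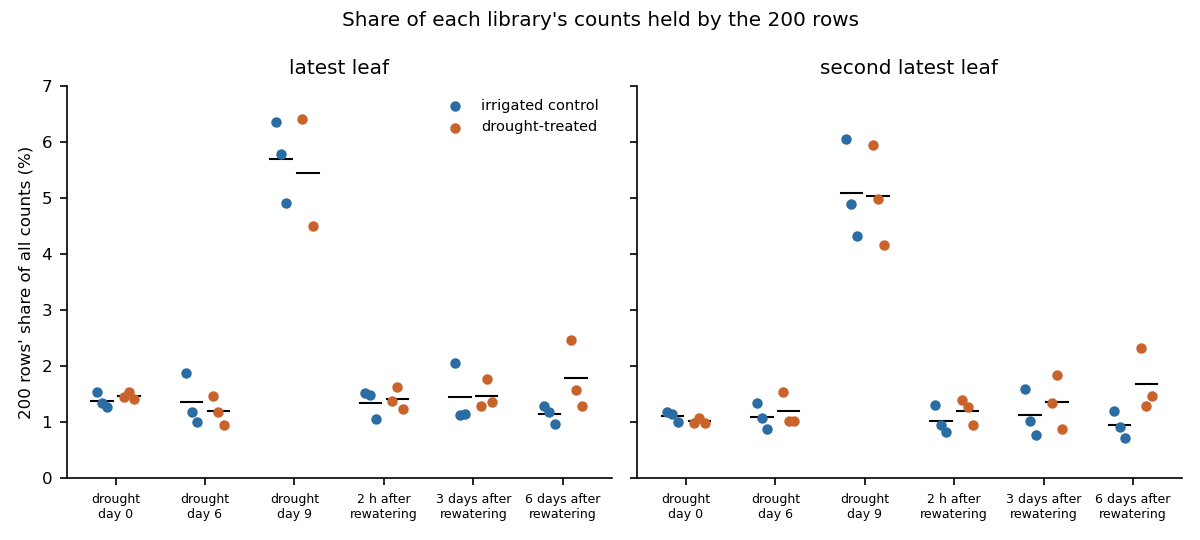
Share of each library's counts held by the 200 rows (%), by stage, with 1 point per usable library and a black line at the group mean. The 11 day 9 libraries, 6 control and 5 treated, lie between 4.16% and 6.42%, and every other library lies at or below 2.47%.

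Both the 6 rows with the highest mean CPM in day 9 controls and the other 194 held a larger share at treated day 9 than at any other treated stage. The 6 rows held 2.14% to 3.40% (median 2.73%) of the counts in treated day 9 libraries and 0.398% to 1.46% in treated libraries of other stages. The other 194 rows held 2.02% to 3.02% (median 2.28%) at treated day 9 and 0.402% to 1.02% at the other stages. Over the 200 rows, the mean CPM in day 9 controls ran from 5.35 to 6735 with a median of 77.5, against a median of 18.1 for all eligible rows. There were 86 rows above 100 CPM and 29 below 10 CPM.

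The measure that chose the rows in controls was then taken in the treated leaves. The treated day 9 mean exceeded the highest of the other 5 treated means by at least 1 on the log2 scale in 160 of 200 rows in the latest leaf and 154 of 200 in the second latest leaf, and in both leaves in 139. The same was true of 1.75%, 1.41% and 1.22% of all eligible rows. The median treated value was 1.64 in the latest leaf and 1.44 in the second latest leaf, against -0.32 and -0.37 over the eligible rows. The control medians of the same rows, fixed by the choice, were 1.72 and 1.85. Treated day 9 was the highest treated stage, by any amount, in 193 rows in the latest leaf, beside 15.6% of the eligible rows, and 194 in the second latest leaf, beside 12%. There were 5 rows at or below another stage in both leaves.

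**Figure D2:**
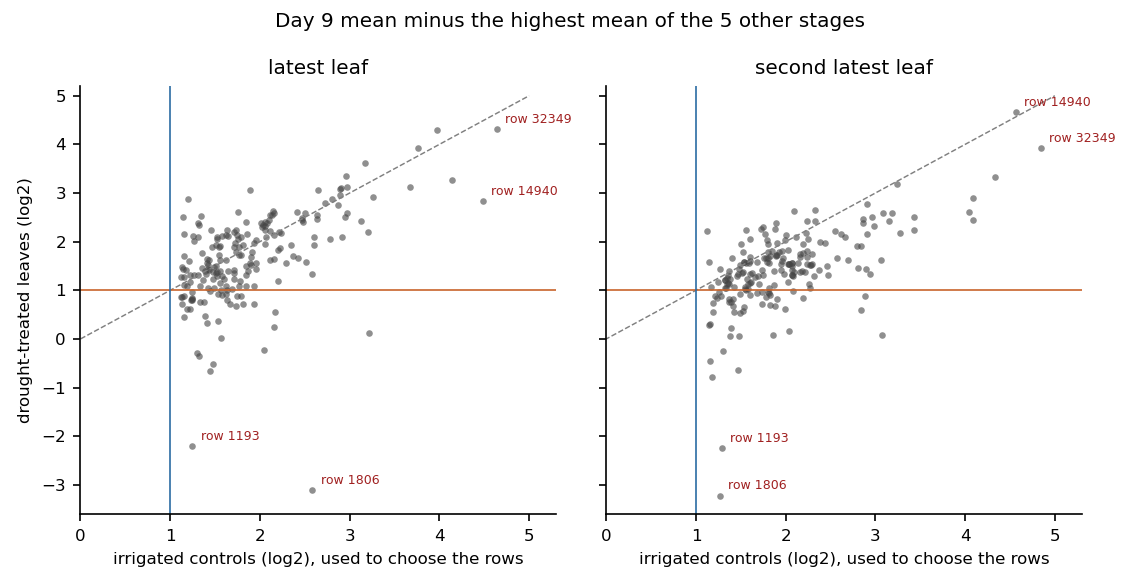
Day 9 mean log2(CPM + 1) minus the highest mean of the 5 other stages in control (x axis) and treated (y axis) leaves, with 1 point per row. Coloured lines mark 1 on each axis and the dashed line marks equal values; 160 and 154 of the 200 points lie at or above the horizontal line, and rows 1806 and 1193 lie below -2 in both leaves.

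Rows with a larger value in controls tended to have a larger value in treated leaves. Across the 200 rows the Pearson correlation of the control and treated values was 0.55 in the latest leaf and 0.62 in the second latest leaf. Between the leaves the treated values had a correlation of 0.81. The control values chose the rows, and these correlations were not taken over the eligible rows. Rows are not independent replicates, and all rows of a leaf share the same libraries. Applied to the treated libraries in place of the controls, the same rule passed 189 rows. Of these, 152 were among the 252 rows passing in controls, which is 60.3% of the control list and 80.4% of the treated list.

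Separation at the level of single libraries gave a similar picture. All treated day 9 libraries lay above all 15 treated libraries of other stages in 172 of 200 rows in the latest leaf, beside 6.03% of the eligible rows. The second latest leaf gave 163 such rows, beside 3.78%, and both leaves together 154, beside 3.23%. In controls, where the choice fixes it, the counts were 181 rows in the latest leaf beside 3.87% of eligible rows and 193 in the second latest leaf beside 5.04%, and nothing is read from them.

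**Figure D3:**
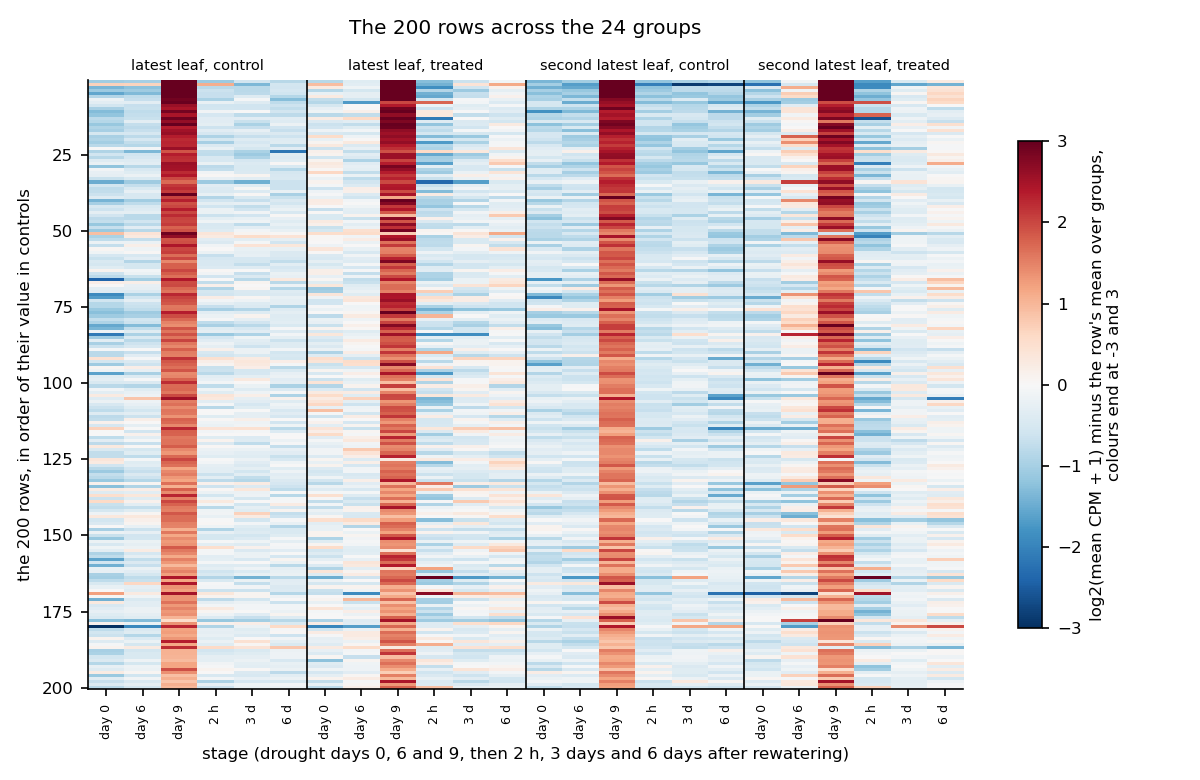
Heat map of the 200 rows (vertical, ordered by their value in controls) across the 24 groups (horizontal), as log2(mean CPM + 1) minus the row's mean over all groups. The 4 day 9 columns are raised over most of the height in control and treated leaves alike, and a few rows in the lower part are also raised in treated leaves at 2 h.

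Row by row, edgeR's quasi-likelihood test on the treated libraries of each leaf called most of the 200 rows higher at day 9 than at each other stage, at a Benjamini-Hochberg adjusted p under 0.05 over all rows tested. In the latest leaf, 184 of 200 rows were higher than at day 6, beside 5.37% of the 20468 rows tested and 6.76% of the tested rows that met the 5 CPM minimum. Against 2 h of rehydration 181 were higher, beside 12% and 14.4%. Against day 0 there were 181, beside 9.8%, against rehydration day 3 there were 174, beside 9.61%, and against rehydration day 6 there were 169, beside 9.32%. In the second latest leaf, 179 rows were higher than at day 6, beside 4.73% of the 20282 rows tested and 5.86% of those above the minimum. Against 2 h there were 181, beside 13.8% and 16.1%. Day 0 gave 188 rows beside 9.51%, rehydration day 3 gave 172 beside 6.83%, and rehydration day 6 gave 158 beside 7.46%.

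The median log2 fold change over the 200 rows lay between 1.86 (second latest leaf, rehydration day 6) and 2.69 (latest leaf, 2 h), while the median over all rows tested lay between -0.02 and 0.03 in every contrast. For day 9 against day 6, the rows from the first to the last quartile ran from 1.89 to 2.95 in the latest leaf and from 1.65 to 2.64 in the second latest leaf. In these fits 1 row of the 200 was called lower at day 9, row 1806, against 2 h, in both leaves. Against 2 h, row 1193 was called lower as well in both leaves without the filter on low counts, and in the second latest leaf with only the compared stages fitted. All 200 rows passed the filter on low counts, but 4 in the latest leaf and 3 in the second latest leaf passed only through the day 9 libraries. Without those rows the count against day 6 was 180 of 196 and 176 of 197. Over all contrasts of day 9 it ran from 165 to 180 of 196 in the latest leaf and from 155 to 185 of 197 in the second latest leaf.

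Taken over all 10 contrasts, 125 of the 200 rows were called higher at treated day 9 in every one, beside 1.8% of the 19906 rows tested in both leaves. A further 23 were called in 9 contrasts and 22 in 8, and 2 rows were called in none. Against the stages on either side, day 6 and 2 h, 155 rows were called in both leaves, beside 2.54% of the same rows tested. These counts over several contrasts keep the rows that passed the filter only through the day 9 libraries, whose calls are a description. Leaving out 1 library at a time kept the counts between 125 and 189 of 200 in each contrast. The lowest counts in the latest leaf were without replicate 1 of day 9, which leaves 1 library at that stage, assumed to vary like the other groups. They were 125 against rehydration day 6, 130 against day 0 and 138 against day 6.

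**Figure D4:**
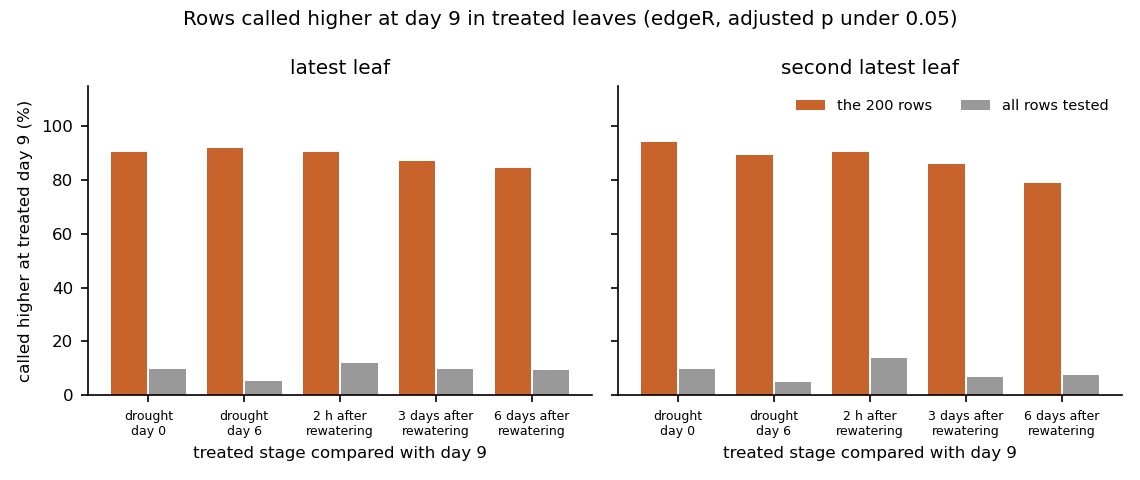
Percentage of the 200 rows (orange bars) and of all rows tested (grey bars) called higher at treated day 9 than at each other treated stage by edgeR, in each leaf. The 200 rows range from 158 called (second latest leaf, 6 days after rewatering) to 188 (second latest leaf, day 0), while the grey bars stay between 4.73% and 13.8%.

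The rows with the largest control value, and so the first 8 in order, were rows 32349, 14940, 38938, 35137, 23541, 24664, 13997 and 54683. Row 32349 stood first, with control values of 4.64 and 4.84 in the latest and second latest leaf. At day 9 its level in the latest leaf was 551, 298 and 206 CPM in the 3 controls and 578 and 274 CPM in the 2 treated libraries. Its second latest leaf read 520, 309 and 242 CPM in controls and 602, 354 and 292 CPM in treated libraries. All 11 values lie above its highest level at any other stage, which was 41.6 CPM in a treated second latest leaf. The groups of the 2 treatments overlapped at day 9 in both leaves.

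Within the treated leaves, row 32349 was low again at 2 h. Its 3 libraries there read 9.85, 8.04 and 7.55 CPM in the latest leaf and 7.59, 5.50 and 5.89 CPM in the second latest leaf. The day 6 libraries before the peak read 32.6, 12.4 and 5.52 CPM and 38.0, 14.3 and 10.4 CPM. Day 6 and 2 h overlapped in the latest leaf and not in the second latest leaf. The controls, which were not rewatered, were also low at every stage other than day 9, 2 h included. They reached at most 27.7 CPM in the latest leaf and 18.3 CPM in the second latest leaf. By edgeR, treated day 9 was higher than day 6 by 4.91 ± 0.57 (log2 fold change and SE, adjusted p = 0.00012) in the latest leaf and 4.58 ± 0.60 (adjusted p = 0.00022) in the second latest leaf. It was higher than 2 h by 5.79 ± 0.60 (adjusted p = 1.5e-05, edgeR) and 6.13 ± 0.66 (adjusted p = 8.8e-06).

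Rows 38938, 35137, 23541, 24664 and 13997 had the same shape at lower levels. In treated leaves their day 9 libraries ran from 34.9 to 186 CPM, and each row's day 9 libraries lay above all of its treated libraries of other stages, of which the highest was 35.3 CPM. Their treated day 9 levels overlapped the control levels in both leaves. Row 35137 was higher at treated day 9 than at day 6 by 4.84 and 4.28 and than at 2 h by 5.16 and 5.01 (log2, edgeR). Rows 38938 and 23541 lost their call against day 6 in the second latest leaf without day 6 replicate 2, day 6 replicate 3 or day 9 replicate 1. Their adjusted p then ran from 0.059 to 0.083.

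Row 14940 differed most between treatments among these 8. In the latest leaf its day 9 controls read 908, 407 and 462 CPM and its 2 treated libraries 276 and 84.5 CPM, without overlap. Controls of the second latest leaf read 335, 130 and 70.7 CPM and the treated libraries 213, 149 and 63.7 CPM, which overlap. Treated day 9 was still higher than treated day 6 by 4.54 and 4.42 and than 2 h by 5.71 and 5.96 (log2, edgeR). In the latest leaf, its differences from treated day 0 (3.02, adjusted p = 0.079, edgeR) and rehydration day 3 (3.47, adjusted p = 0.0504) did not pass. The day 6 calls were lost in both leaves without day 6 replicate 2, day 6 replicate 3 or day 9 replicate 1, with adjusted p from 0.064 to 0.27.

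Row 54683 was the 1 row of the 8 whose treated libraries at 2 h overlapped those at day 9. Treated day 9 gave 29.9 and 9.53 CPM in the latest leaf and 22.7, 26.8 and 7.50 CPM in the second latest leaf, with the controls, at 23.7 to 47.1 CPM, overlapping them in both leaves. At 2 h the treated libraries read 10.9, 24.7 and 13.9 CPM and 35.8, 9.87 and 10.7 CPM. The day 9 and 2 h stages did not pass edgeR's test (differences of 0.39 and 0.12 on the log2 scale, adjusted p = 0.72 and 0.93), which does not show them to be equal. Both were above day 6, where the treated libraries read 0.299 to 2.65 CPM. The second latest leaf's call against day 6 was lost without day 6 replicate 2 or 3 or day 9 replicate 1 or 2 (adjusted p from 0.074 to 0.1).

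The most abundant of the 200 rows were rows 10637, 14184, 28113, 25421, 1518 and 32480. Row 10637 led, with 6717, 7803 and 4287 CPM in the day 9 controls of the latest leaf and 9164 and 6594 CPM in the treated libraries. Its second latest leaf read 8112, 7281 and 6212 CPM in controls and 8489, 7661 and 6396 CPM in treated libraries. All 11 libraries lie above the highest of its 60 libraries at other stages, 2308 CPM, and the treatments overlap in both leaves. By edgeR, treated day 9 exceeded day 6 by 3.31 ± 0.31 (log2, SE, adjusted p = 2.3e-05) and 2.96 ± 0.37 (adjusted p = 0.00018), and 2 h by 3.10 ± 0.31 (adjusted p = 1.1e-05) and 3.01 ± 0.37 (adjusted p = 3.5e-05).

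Row 14184 was similar, at 6416 and 9822 CPM in the treated latest leaf and 7254 to 11036 CPM in the treated second latest leaf at day 9, against at most 1627 CPM in treated leaves otherwise. Together, rows 10637 and 14184 took 1.30% to 1.95% (median 1.72%) of the counts of a treated day 9 library and 0.118% to 0.373% of a treated library of another stage. Row 28113 moved less, from treated levels of 887 to 2621 CPM at other stages to 3079 to 4192 CPM at day 9. Its latest leaf calls were lost without day 9 replicate 1 (adjusted p = 0.087 against day 6 and 0.063 against 2 h).

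Rows 25421, 1518 and 32480 stood less clearly apart from the other stages. Their treated day 9 libraries overlapped treated libraries of other stages in both leaves for rows 25421 and 32480, and for row 1518 in the second latest leaf. For row 1518, treated day 9 read 4347 and 2226 CPM in the latest leaf and 3242, 2739 and 1643 CPM in the second latest leaf. It was above day 6 by 2.22 (adjusted p = 0.022) and 2.47 (adjusted p = 0.01) by edgeR. Its differences from 2 h of 1.17 and 0.90 on the log2 scale did not pass (adjusted p = 0.15 and 0.23). In the latest leaf, rows 25421 and 32480 did not pass against 2 h either (1.04 and 1.35, adjusted p = 0.12 and 0.14, edgeR). The call of row 32480 over 2 h in the second latest leaf was lost in 5 alternatives. The day 6 calls of these 3 rows were each lost when some single libraries were left out, with adjusted p up to 0.41 without day 9 replicate 1 in the latest leaf.

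Each row has 4 treated log2 fold changes of day 9 over day 6 and over 2 h, and the rows called in all 4 whose smallest value was highest were rows 44290, 32349, 14940, 35137, 13997 and 7630, of which 4 were already among the first 8 in controls. Row 44290 passed the filter on low counts only through the day 9 libraries in both leaves, and row 7630 did so in the latest leaf. Such a row had to differ at day 9, so its calls and its place in this order are a description. Row 44290 was close to silent except at day 9. Its treated day 9 libraries read 11.0 and 3.80 CPM in the latest leaf and 8.06, 4.36 and 2.57 CPM in the second latest leaf, and its controls read 2.40 to 14.5 CPM. The median of the other 15 libraries was 0 CPM in each leaf and treatment, with a highest value of 0.248 CPM. It had no count at day 6 or at 2 h in the treated latest leaf. Set against a floor of 3 counts per library, day 9 was at least 29.6-fold higher than day 6 and at least 40.2-fold higher than 2 h there. In the second latest leaf the day 6 libraries read 0.136, 0.0640 and 0 CPM, below the floor.

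Row 7630 was the most uneven. Its treated day 9 libraries read 5.13 and 0.949 CPM in the latest leaf, overlapping the other treated libraries at 0 to 1.17 CPM, and 23.4, 12.3 and 1.79 CPM in the second latest leaf, above all others. The controls at day 9 were as uneven, from 3.00 to 64.7 CPM in the second latest leaf. In the latest leaf the call against day 6 (adjusted p = 0.043) was lost without day 6 replicate 1, day 6 replicate 3 or day 9 replicate 1. The call against 2 h there was lost without day 9 replicate 1.

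**Figure D5:**
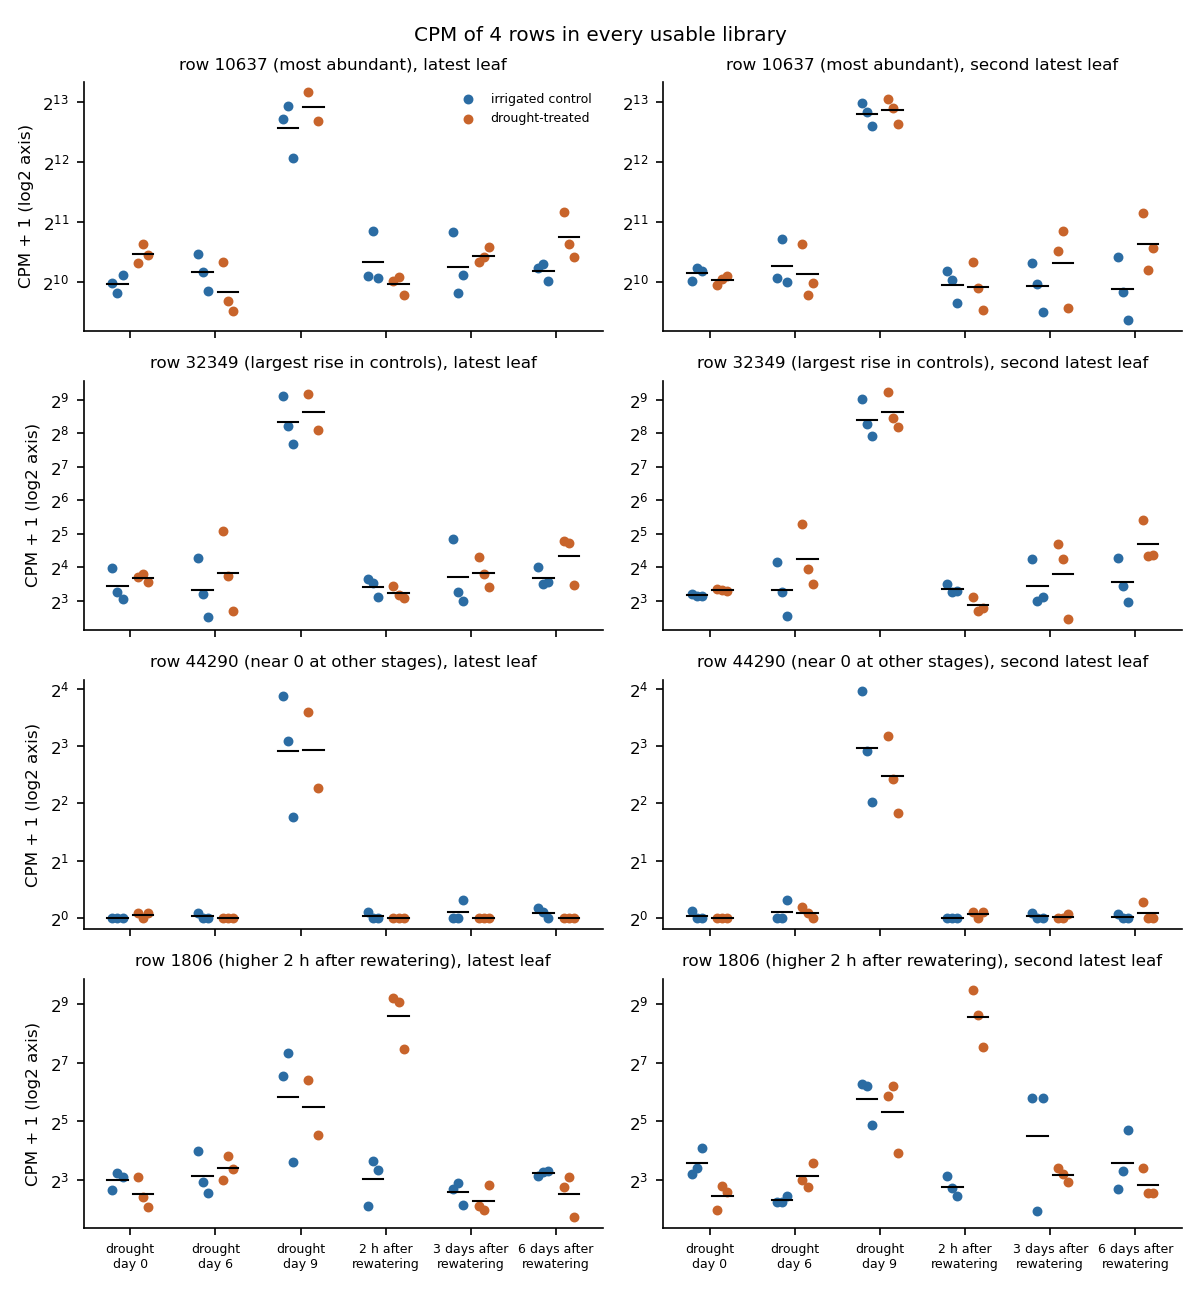
CPM + 1 on a log2 axis of rows 10637, 32349, 44290 and 1806 in every usable library, by stage, leaf and treatment, with a black line at the mean of the log2 values. Rows 10637, 32349 and 44290 peak at day 9 in control and treated leaves alike, and row 1806 is highest in treated leaves at 2 h, between 178 and 713 CPM.

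The rows that least repeated the control pattern in treated leaves were rows 1806, 1193, 48719, 19196, 32045 and 12150. In 4 of them, rows 1806, 1193, 48719 and 32045, the day 9 level of the treated leaves was passed at 2 h of rehydration, a stage at which the means of their controls were below those of day 9. The control pattern of row 1806 was itself uneven. Its day 9 controls read 11.2 to 161 CPM in the latest leaf, where controls of other stages reached 14.8 CPM. In the second latest leaf they read 28.3 to 75.7 CPM, where those of other stages reached 55.0 CPM. Day 9 controls of rows 1193, 48719, 19196, 32045 and 12150 lay above all controls of other stages in both leaves. Row 1806 read 85.1 and 22.2 CPM at treated day 9 in the latest leaf and 588, 537 and 178 CPM at 2 h, and 56.8, 73.9 and 14.3 CPM against 713, 399 and 187 CPM in the second latest leaf. The stages do not overlap in either leaf. Day 9 was lower than 2 h by edgeR (log2 fold change -2.85 ± 0.63, SE, adjusted p = 0.005, and -3.06 ± 0.54, adjusted p = 0.00064), and in the latest leaf this call was lost without day 9 replicate 3 (adjusted p = 0.053). Day 9 was nonetheless above day 6 by 2.72 ± 0.59 (SE, adjusted p = 0.0081, edgeR) and 2.87 ± 0.56 (adjusted p = 0.0037), the first of which was lost without day 9 replicate 1 (adjusted p = 0.35).

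For row 1193, treated 2 h libraries read 628, 884 and 614 CPM in the latest leaf and 824, 625 and 420 CPM in the second latest leaf. At day 9 they read 320 and 71.1 CPM and 216, 192 and 47.9 CPM, below 2 h in every library. The day 9 to 2 h difference did not pass edgeR's test (log2 fold change -1.70 and -1.93, adjusted p = 0.26 and 0.17). It did pass in edgeR without the filter on low counts (adjusted p = 8.7e-07 and 0.027) and, in the second latest leaf, with only the compared stages fitted (adjusted p = 0.019). The mean of the 2 h controls was 137 CPM in the latest leaf and 47.1 CPM in the second latest leaf. Rows 48719 and 32045 differed between day 9 and 2 h by -0.45 and -0.43 in the latest leaf and by -0.41 and -0.15 in the second latest leaf, none past the threshold.

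Rows 19196 and 12150 were low throughout the treated leaves. Row 19196 read 9.28, 9.27 and 25.6 CPM in the day 9 controls of the latest leaf and 3.31 and 2.85 CPM in the treated libraries, without overlap. Row 12150 read 8.99, 4.89 and 12.1 CPM against 1.88 and 2.03 CPM. Both rows were again lower in all treated day 9 libraries of the second latest leaf than in all its controls, at 1.37 to 2.29 CPM against 2.75 to 7.61 CPM for row 19196 and 1.07 to 1.75 CPM against 3.75 to 8.56 CPM for row 12150. Neither was called higher at treated day 9 than at day 6 in the fits described above (adjusted p from 0.19 to 0.92, edgeR). Without the filter on low counts, edgeR called row 12150 higher than at day 6 in the latest leaf (adjusted p = 0.019). With only the compared stages fitted it did so too (adjusted p = 0.026). In the second latest leaf, edgeR called row 19196 higher than at 2 h by 2.25 ± 0.78 (log2, SE; adjusted p = 0.041), a call lost without any 1 of the 3 day 9 libraries, 2 h replicate 1 or 2 h replicate 3. In the latest leaf this row gained a call over 2 h in the same 2 alternatives (adjusted p = 0.029 and 0.045, edgeR). Row 12150 gained it in the second latest leaf with only the compared stages fitted (adjusted p = 0.04).

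The 200 rows were then set side by side between treatments at day 9. This contrast uses the control libraries that chose the rows, so it is a description with no test. The median treated minus control difference was 0.19 on the log2(CPM + 1) scale in the latest leaf and 0.00 in the second latest leaf, against 0.26 and 0.07 over the eligible rows. It was within 1 of 0 in 178 rows (89%) in the latest leaf and 188 (94%) in the second latest leaf, beside 93.3% and 97.4% of the eligible rows. Scaled by TMM, the medians were -0.07 and -0.06 for the 200 rows and 0.01 and 0.01 for the eligible rows. In the latest leaf, all treated libraries lay above all controls in 43 rows, beside 38.1% of eligible rows, and below in 21, beside 7.2%. In the second latest leaf they lay above in 29 rows, beside 17.1%, and below in 8, beside 7.23%, so that 136 and 163 rows overlapped.

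After day 9 the rows were lower in both treatments, in controls that were not rewatered as in treated leaves that were. The median of the 200 control group means went from 6.33 at day 9 to 3.89 at 2 h in the latest leaf and from 6.15 to 3.55 in the second latest leaf, as log2(CPM + 1), and the treated median from 6.41 to 3.75 and from 6.22 to 3.50. Treated day 6 and 2 h were then compared directly. At 2 h against day 6 in treated leaves, edgeR called 32 of the 200 rows lower in the latest leaf, beside 8.27% of rows tested, and 48 in the second latest leaf, beside 9.48%. It called 10 and 13 rows higher, beside 10.9% and 11.9%. Of the rows called lower, 27 were called in both leaves, and of the rows called higher, 9, among them rows 1806, 1193, 54683, 48719 and 32045. The median difference between 2 h and day 6 was -0.30 in the latest leaf and -0.57 in the second latest leaf, against -0.02 and -0.03 over all rows tested. Without day 6 replicate 1 it was -0.07 and -0.27, against -0.02 and -0.01.

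These smaller counts depended on single libraries. In the latest leaf the count called lower was 12 without day 6 replicate 1, 21 without day 6 replicate 2 and 16 without 2 h replicate 2. The count called higher there was 5 without day 6 replicate 2, 6 without day 6 replicate 3 and 5 without 2 h replicate 2. In the second latest leaf the count called lower was 21 without day 6 replicate 1, 30 without 2 h replicate 2 and 30 without 2 h replicate 3. The count called higher was 8 without day 6 replicate 2, 6 without day 6 replicate 3, 5 without 2 h replicate 1 and 7 without 2 h replicate 2.

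Among treated stages other than day 9, the highest mean was at day 6 for 65 rows in the latest leaf and 90 in the second latest leaf. It was at rehydration day 6 for 39 and 71 rows, at 2 h for 34 and 20, at day 0 for 49 and 7, and at rehydration day 3 for 13 and 12. In controls the same count was highest at rehydration day 6 in the latest leaf, with 67 rows, and at day 0 in the second latest leaf, with 66 rows. These counts were not taken over the eligible rows. Whether the chosen rows differ from the eligible rows in this respect was therefore not tested, and the counts are a description.

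Whether the rise from day 6 to day 9 in treated leaves differed between the leaves was then tested. A test of that difference in 1 edgeR fit over both leaves called 0 of the 200 rows, beside 0% of the 21204 rows tested, with 9 of the 200 rows at an unadjusted p under 0.05, and DESeq2 called 0. Pairing the same-numbered leaves of each stage in the edgeR fit also called 0 rows, with 22 at an unadjusted p under 0.05. The share of all rows tested at that unadjusted p was not taken, so nothing is read from the 9 and the 22. The median difference, latest minus second latest leaf, was 0.27 on the log2 scale and moved with single libraries. It was -0.01 without day 6 replicate 1 of the second latest leaf, 0.03 without day 9 replicate 1 of the latest leaf and 0.50 without day 9 replicate 3 of the latest leaf.

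The day 9 libraries were not uniform within groups. Replicate 1 had the highest median of the 200 rows and replicate 3 the lowest in all 4 groups, 6.57 against 5.68 (log2) in the control latest leaf, 6.50 against 6.25 in the treated latest leaf, 6.37 against 5.76 in the control second latest leaf and 6.39 against 5.98 in the treated second latest leaf. Replicate 1 was the highest library of its group for 171 and 165 of the 200 rows in treated leaves, the first of these out of 2 libraries. In controls it was the highest for 116 rows in the latest leaf and 154 in the second latest leaf. The same count over the eligible rows was not taken. The lowest of the day 9 medians still exceeds the highest at any other stage, 4.68.

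Some of the 200 rows are neighbours in the table. There were 7 pairs on adjacent lines, with Pearson correlations of log2(CPM + 1) over the 71 usable libraries from 0.66 to 0.98. They include rows 32349 and 32350, 35136 and 35137, and 14183 and 14184, the last pair at 6.22 and 6284 CPM on average over the day 9 controls. All 200 rows were chosen as high in day 9 controls, which are among the 71 libraries, so any pair of them tends to correlate. The correlation of pairs not on adjacent lines was not taken, so nothing is read from these values. Without identifiers it was not tested whether such neighbours share reads or sequence.

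At the end of the order, the last 3 rows kept were rows 32900, 23840 and 30183, with smaller-leaf control values of 1.124, 1.124 and 1.121. The first 3 left out by the limit of 200 were rows 34249, 876 and 10079, at 1.117, 1.113 and 1.111. Row 32900 was higher in treated than in control leaves at day 9, at 107 and 91.3 CPM against 49.2, 34.3 and 12.6 CPM in the latest leaf, without overlap. In the second latest leaf its treated libraries read 122, 80.4 and 110 CPM and its controls 80.9, 41.5 and 32.0 CPM, which overlap. Of the 52 rows left out by the limit, 13 reached 1 in both treated leaves, and their median treated values were 0.80 and 0.76. The lowest row passing the threshold was row 46526, at 1.006, and the nearest row under it was row 1875, at 0.986.

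Outside the 200, the rows whose 24 group means followed the mean of the 200 most closely were rows 44369, 43585, 21753, 1179 and 48242, with Pearson correlations from 0.959 to 0.978. Rows 43585 and 1179 passed the rule in controls and fell beyond the limit. The other 3 missed it, with smaller-leaf control values of 0.89, 0.74 and 0.76.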

How the data were processed

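Leaf polyA RNA was sequenced from directional libraries. The authors deposited raw counts per row for all 72 libraries; per the submitters' processing notes these came from STAR and featureCounts 2.0.0 on build IRGSP-1.0. No source used here gives other settings. The rows carry no identifier, so no gene names could be joined. Groups came from the labels. CPM used library totals and a pseudocount of 1. Libraries under 100000 counts were left out, which removed 1. The 200 rows, the named rows and the tests were chosen with earlier results of these data known.

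Tests used the treated libraries alone, per leaf, in edgeR 4.0.16 (R 4.3.3; TMM, filterByExpr, quasi-likelihood test, adjusted over all rows tested; the SE is the fold change over the root of the F statistic), with DESeq2 1.42.0 as an alternative. The script was tested on simulated data. Of 70 replicate pairs none was identical, and chi-square per degree of freedom was 6.12 or more. Same-numbered libraries of different stages did not deviate together in every pair (correlations as low as -0.20), so the numbers were not used as pairs across stages. Same-numbered libraries of the latest and second latest leaf did deviate together at treated day 6 (correlations 0.25 to 0.39) and day 9 (0.34 and 0.45), though at rehydration days 3 and 6 the lowest were 0.05 and 0.06. A fit of the leaf difference with these leaves paired was therefore added after seeing the data.

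Rows named are the 8 highest in the order, the 6 most abundant, the 6 with the largest smallest rise over day 6 and 2 h, the 6 lowest in treated leaves among those tested, the 3 last kept and 3 first left out, and the 5 outside rows most like the mean. None qualified for a leaf difference.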

Additional observations from a re-analysis of the deposited data

How the results depend on the processing

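The number of rows passing the rule, 252, ranged from 220 to 368 under other scalings, pseudocounts and minimums, and from 189 to 325 with control libraries left out. The treated counts reaching 1, 160 and 154, stayed between 155 and 162 under other scalings and pseudocounts and between 138 and 173 without 1 day 9 library. With the near-empty library kept, the latest leaf count was 42; in that library 1 count is worth 570 CPM. The 10 counts of rows called higher at treated day 9 stayed within 1.5 times under every setting run, from 125 to 198 of 200. With the replicate block, day 9 against day 6 gave 184 and 183 rows, and no count moved by more than 1.5 times.

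At 2 h against day 6 in the latest leaf, the absence of a filter on low counts gave 68 rows lower and 30 higher, and a fit of only the stages compared gave 20 higher. Single libraries left out gave 12 to 34 lower and 5 to 12 higher in the latest leaf, and 21 to 54 lower and 5 to 9 higher in the second latest leaf. The leaf difference called 1 row without the filter, and 0 with a replicate block pairing the leaves within each stage, an alternative chosen after seeing the data. The cause of these changes was not tested. Treated minus control differences at day 9, an alternative set chosen after seeing the data, stayed within 1 of 0 in 168 to 190 rows. For the named rows against day 6 and 2 h, 1102 alternatives left the call as it was, 71 lost it, 25 gained it and none turned a called direction. Depth limits rows near the floor of 3 counts, and the treated latest leaf rests on 2 day 9 libraries.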
